A study of Mus musculus with 6 samples.

Results

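The 37 genes described here build, shape and run mitochondria in brown adipose tissue of mice: subunits of the protein import machinery, proteins of mitochondrial fusion and fission, factors that copy and transcribe mitochondrial DNA, 2 nuclear transcription factors, matrix proteases and prohibitins. They were chosen by name and not by a limit on their values, though with earlier results of these data known. All listed symbols starting with Tomm (9 genes) or Timm (11 genes) were taken, together with 17 named genes, out of 12966 genes in the table. Testing was limited to the 11397 genes that averaged 1 FPKM or more across libraries, and all 37 were among them. Their lowest value in any library was 3.67 FPKM (Nrf1 in BKO-1) and their highest was 163 FPKM (Timm23 in BKO-2).

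RNA was sequenced from brown adipose tissue of male C57BL/6J mice at 10 weeks of age, in 3 libraries of Bscl2f/f Ucp1Cre mice (BKO) and 3 libraries of Bscl2f/f mice (Ctrl). Both groups carry the floxed allele of Bscl2, the gene of seipin, a membrane protein of the endoplasmic reticulum needed for normal lipid droplet formation. BKO mice alone carry the Cre recombinase. It is driven by the Ucp1 promoter, which is active in brown adipocytes, so the other cells of the tissue are expected to keep the gene. An effect of the Cre transgene cannot be told apart from that of losing seipin. The labels do not say that each library is a separate animal, so p-values here measure the spread between libraries, which may be technical.

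Mitochondria make only a few of their proteins and import all others from the cytosol. Precursors enter through the TOM complex of the outer membrane and are then handed to TIM23, which passes them into the matrix or inner membrane, or, with the help of small Tim chaperones, to TIM22, which inserts carrier proteins into the inner membrane. Mitofusins and Opa1 fuse mitochondria, and Dnm1l divides them with adaptors such as Fis1 and Mff. Brown adipocytes are packed with mitochondria, where Ucp1 turns respiration into heat.

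Values are FPKM, fragments mapped to a gene per unit of transcript length and of sequencing, a scale on which levels of different genes can be compared. Wherever 3 values are given for a group, they are those of its libraries 1, 2 and 3. Bscl2 stood at 16.5, 16.9 and 18.9 FPKM in the BKO libraries, against 116, 104 and 106 FPKM in the Ctrl libraries, as their labels say. Its mean in BKO was 16.03% of that in Ctrl (difference -2.57 on the log2(FPKM + 1) scale, SE 0.0788, adjusted p = 3.95e-05, limma with Benjamini-Hochberg adjustment; exact two-sided permutation p = 0.1, the smallest possible with 3 against 3 libraries). All 12 brown adipocyte markers were listed, none of them at 0, and 5 of the 12 were higher in BKO, with 0 called by limma. Their summed level was 9855 to 10394 FPKM in BKO and 9096 to 10422 FPKM in Ctrl. Cox7a1 and Cox8b were higher in every BKO library than in any Ctrl library, and Cidea and Kcnk3 were lower in every BKO library. Macrophage markers were higher in BKO in 16 of 16 tested genes, with 4 called, none of the 18 listed at 0, and a summed level of 182 to 226 FPKM in BKO against 66.3 to 106 FPKM in Ctrl. Preadipocyte and fibroblast markers were higher in BKO in 11 of 12 genes, with 0 called by limma, and summed to 473 to 559 FPKM in BKO and 359 to 471 FPKM in Ctrl, which do not overlap. Erythroid markers had a negative difference in 5 of 5 tested genes, with 0 called by limma, and summed to 502 to 511 FPKM in BKO and 426 to 678 FPKM in Ctrl. Skeletal muscle markers ranged from 225 to 560 FPKM in BKO and from 178 to 811 FPKM in Ctrl. The part of any of these in the results below was not tested, beyond a fit with the muscle level as a covariate. In bulk tissue, fewer cells of a type and less RNA per cell cannot be told apart.

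None of the 37 genes passed the test between BKO and Ctrl. With limma and Benjamini-Hochberg adjustment across the 11397 genes, 0 were higher and 0 lower at a threshold of 0.05, where 0.167% of all genes tested were called (0.158% higher and 0.00877% lower). The lowest adjusted p among the 37 was 0.441 (limma). At an unadjusted p below 0.05 there were 3 genes, Tomm5 higher and Phb2 and Timm22 lower, which is 8.11% of the 37 beside 10.2% of all genes tested (6.63% higher and 3.52% lower). The libraries of the groups did not overlap in 5 genes, Tomm5 higher and Dnm1l, Phb2, Tfb2m and Tomm22 lower, which is 13.5% of the 37 beside 15.9% of all genes tested. By direction that was 2.7% higher and 10.8% lower, beside 9.06% and 6.82% of all genes tested. BKO-3 has 81 listed genes below 0.5 FPKM and the other libraries have 471 to 777, and the part of this in the shares by direction was not tested. Among the 7074 genes averaging 5 FPKM or more, the background was 8.26% higher and 8.28% lower. Both totals lay near the background.

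**Figure D1:**
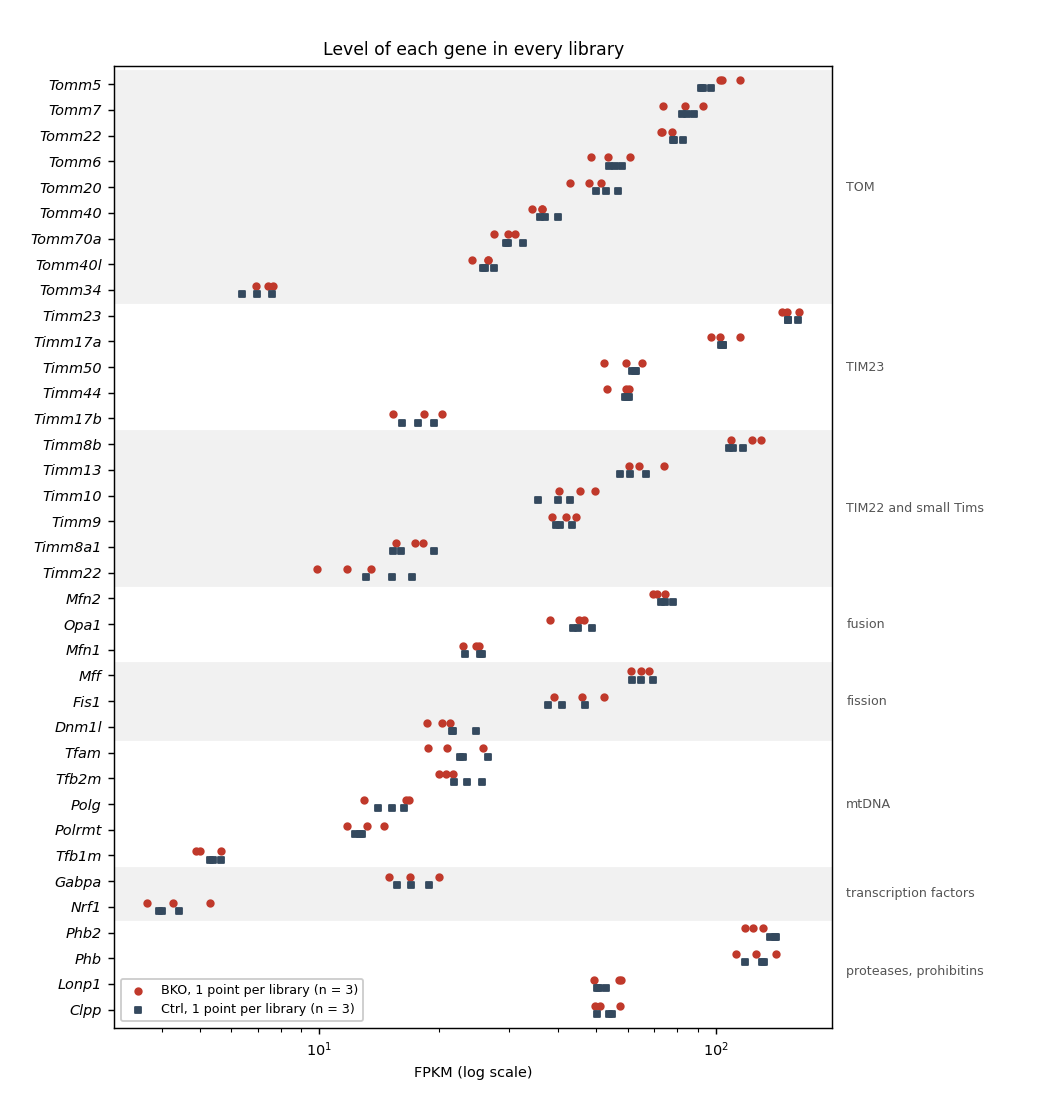
Level of each of the 37 genes in every library (horizontal axis, FPKM on a log scale; circles, 3 BKO libraries; squares, 3 Ctrl libraries), grouped by role. Levels span 3.67 to 163 FPKM, and BKO and Ctrl points lie apart in 5 genes.

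The data bound how large a difference could be. The median difference over the 37 genes was -0.02 on the log2(FPKM + 1) scale, beside 0.01 over all genes tested, and single genes ranged from -0.35 (Timm22) to 0.19 (Timm10). The standard errors were 0.0633 to 0.134. For 36 of the 37 genes the 95% interval of the difference (limma, not adjusted for the number of genes) lay within a 1.5-fold change in either direction, and the exception was Timm22. Over all genes tested the share of such intervals was 85.8%, and among the 7223 tested genes within the same range of mean levels it was 89.4%.

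**Figure D2:**
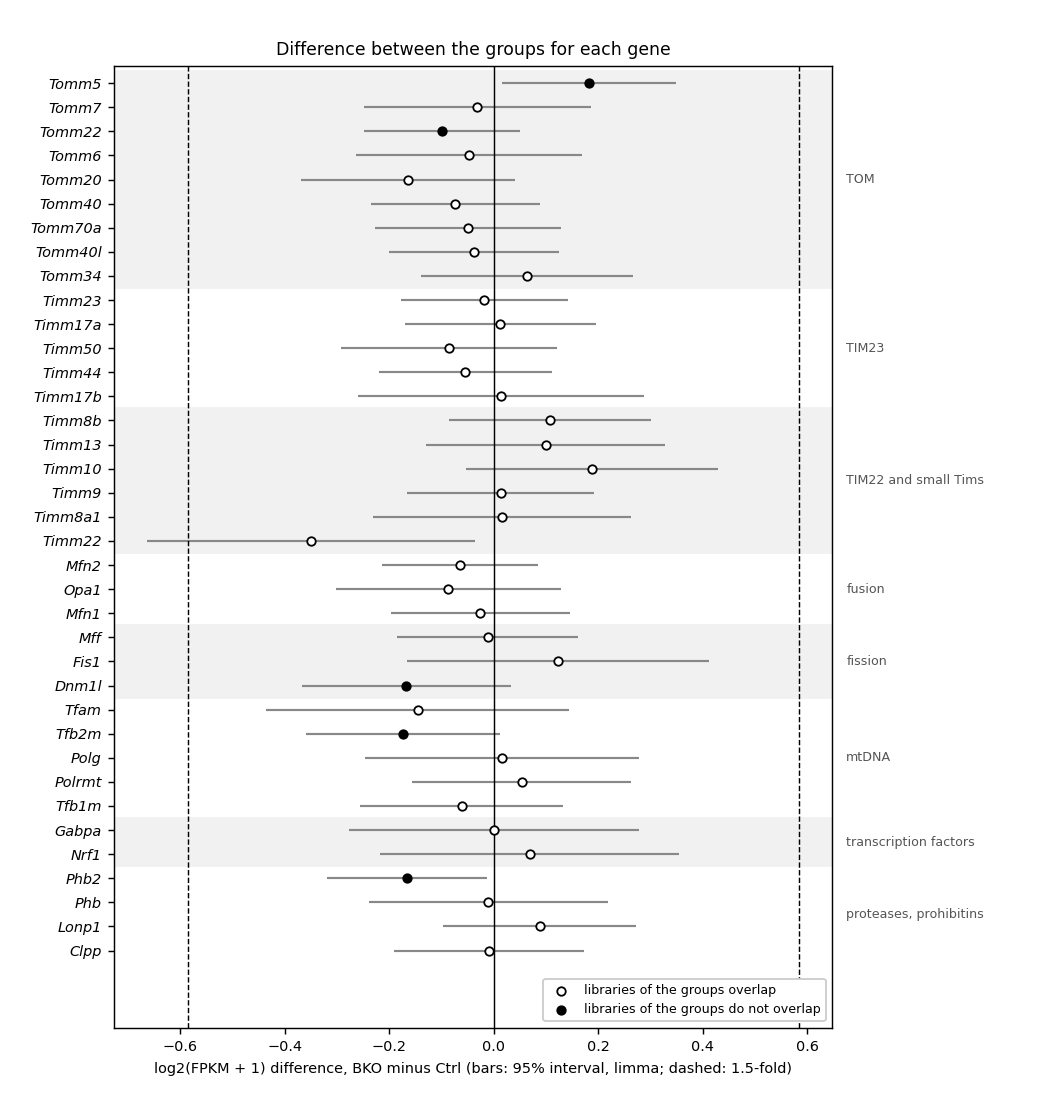
Difference between BKO and Ctrl for each gene on the log2(FPKM + 1) scale (points) with its 95% interval from limma (bars); dashed lines mark a 1.5-fold change and filled points mark the 5 genes whose libraries do not overlap. Intervals exclude 0 for Tomm5, Phb2 and Timm22, and only that of Timm22 reaches past a dashed line.

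In the outer membrane, the TOM genes differed widely in level, and 7 of 9 had a negative difference (Tomm7 had 0.015 with library weights). Tomm5, a small subunit that assists assembly of the complex, was the most abundant, with 104, 115 and 102 FPKM in the BKO libraries, against 91.6, 92.9 and 97.4 FPKM in the Ctrl libraries. All 3 BKO libraries lay above all 3 Ctrl libraries. The mean was 107 ± 6.89 FPKM in BKO and 93.9 ± 3.03 FPKM in Ctrl (SD, n = 3 each), a difference of 0.18 on the log2 scale (95% interval 0.02 to 0.35, limma adjusted p = 0.446). Tomm22, the receptor subunit that links the other receptors to the pore, lay on the other side, with 72.7, 77.4 and 73.1 FPKM in the BKO libraries and 82.8, 78.6 and 77.8 FPKM in the Ctrl libraries. Its highest BKO value was just under its lowest Ctrl value, and the difference was -0.10 (95% interval -0.25 to 0.05, limma adjusted p = 0.651).

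Tomm20, the receptor for precursors with a cleavable presequence, stood at 42.9, 51.3 and 47.8 FPKM in the BKO libraries and at 52.8, 49.8 and 56.6 FPKM in the Ctrl libraries. BKO-2 lay above Ctrl-2, so the groups overlapped, and the log2 difference was -0.16 (95% interval -0.37 to 0.04). Tomm40, the pore, stood at 36.5, 36.4 and 34.4 FPKM in BKO and at 37.03, 36.0 and 40.1 FPKM in Ctrl. The groups overlapped here too, with a log2 difference of -0.07 (95% interval -0.24 to 0.09). The small subunits Tomm7 and Tomm6 averaged 83.4 ± 9.58 and 54.2 ± 6.24 FPKM in BKO, against 84.9 ± 3.05 and 55.9 ± 2.17 FPKM in Ctrl (SD, n = 3 each). Tomm70a, the receptor for carrier proteins, averaged 29.6 ± 1.84 FPKM in BKO and 30.7 ± 1.68 FPKM in Ctrl, and Tomm40l, a paralog of the pore, 25.8 ± 1.40 and 26.5 ± 0.895 FPKM in BKO and Ctrl. Tomm34, a cytosolic co-chaperone and no subunit of the complex, was the lowest, at 7.32 ± 0.359 FPKM in BKO and 6.97 ± 0.607 FPKM in Ctrl. The sum over the 9 genes was 465 ± 29.03 FPKM in BKO and 469 ± 11.9 FPKM in Ctrl.

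In the TIM23 branch of import all groups overlapped. Timm23, the channel subunit, was the most abundant of the 37 genes, with 151, 163 and 147 FPKM in the BKO libraries and 153, 153 and 161 FPKM in the Ctrl libraries. Both the lowest and the highest value were in BKO, and the log2 difference was -0.02 (95% interval -0.18 to 0.14). Timm50, the receptor that receives precursors from the outer membrane, had the largest difference of this group, with 52.2, 65.2 and 59.3 FPKM in the BKO libraries and 62.5, 61.6 and 62.8 FPKM in the Ctrl libraries. BKO-1 was the low library and BKO-2 exceeded every Ctrl library, with a log2 difference of -0.09 (95% interval -0.29 to 0.12) that was -0.0036 without BKO-1 and -0.16 without BKO-2. Timm17a and Timm17b, alternative partners of the channel, averaged 105 ± 9.31 and 18.04 ± 2.53 FPKM in BKO, against 104 ± 0.887 and 17.8 ± 1.66 FPKM in Ctrl. Timm44, which anchors the import motor, averaged 57.6 ± 3.94 FPKM in BKO and 59.7 ± 0.620 FPKM in Ctrl (SD, n = 3 each).

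In the TIM22 branch the difference was negative for the inner membrane translocase and positive for its small chaperones, though slight for Timm9 and Timm8a1. Timm22, the pore for carrier proteins, had the largest difference of all 37 genes, with 13.5, 11.7 and 9.86 FPKM in the BKO libraries and 15.2, 13.1 and 17.1 FPKM in the Ctrl libraries. BKO-1 lay above Ctrl-2, so the groups overlapped by 1 library. The mean was 11.7 ± 1.84 FPKM in BKO and 15.1 ± 2.01 FPKM in Ctrl (SD, n = 3 each), a ratio of 0.772 and a log2 difference of -0.35 (SE 0.134, 95% interval -0.66 to -0.04, limma adjusted p = 0.441). With 1 library left out its difference was -0.45 to -0.24.

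All 5 small Tims, which escort hydrophobic precursors across the space between the membranes, had a positive difference, which turned slightly negative for Timm8a1 and Timm9 when libraries were rescaled by median ratio or quantile. Timm8b, the most abundant, had 124, 130 and 109 FPKM in the BKO libraries and 117, 108 and 111 FPKM in the Ctrl libraries. Only BKO-1 and BKO-2 lay above every Ctrl library, and the log2 difference was 0.11 (95% interval -0.08 to 0.30). Timm10 averaged 45.1 ± 4.74 FPKM in BKO and 39.5 ± 3.71 FPKM in Ctrl, with a log2 difference of 0.19 (95% interval -0.05 to 0.43), and Timm9, with which it forms a hexamer, 41.6 ± 2.86 and 41.2 ± 2.03 FPKM in BKO and Ctrl. Timm13 averaged 66.2 ± 7.21 FPKM in BKO and 61.6 ± 4.73 FPKM in Ctrl, and Timm8a1 17.1 ± 1.34 FPKM in BKO and 16.9 ± 2.17 FPKM in Ctrl (SD, n = 3 each). None of the 5 passed the test, and their groups overlapped.

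Among all genes tested, a positive difference was more frequent in those with a short union of exons than in those with a long one. The genes named above include short ones. The union takes in every annotated exon of a gene, so it can exceed the length of a single transcript. Lengths of the union of exons were found for all 37 genes and for 90.0% of all genes tested, in GENCODE vM21. The 3 genes under 1000 nt, Timm8b (518 nt), Timm10 (815 nt) and Tomm5 (868 nt), had positive differences with a median of 0.18, whereas the 34 longer genes had a median of -0.03 and 12 of them were positive. Next in length, Tomm7 (1125 nt), Tomm6 (1131 nt) and Clpp (1223 nt) had slightly negative differences, and Timm13 (1371 nt) and Timm8a1 (1421 nt) positive ones. Over all genes tested, the 621 under 1000 nt had a median difference of 0.09, with 417 positive, and the 9638 longer ones 0.00, with 4876 positive. Across genes, Spearman's rho between length and difference was -0.25 for the 37 and -0.19 for all with a length. The genes share their libraries and are not independent, and the part of length in the values of Tomm5 and the small Tims was not tested.

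**Figure D3:**
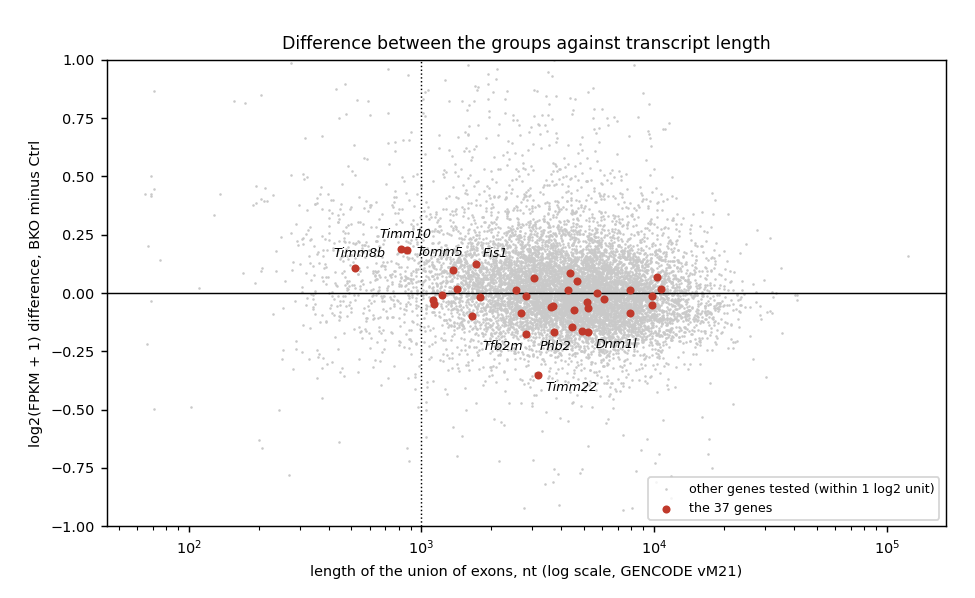
Difference between BKO and Ctrl on the log2(FPKM + 1) scale (vertical axis) against the length of the union of exons in nt (horizontal axis, log scale), for the 37 genes (large points) and the other genes tested (small points; those beyond 1 log2 unit are not drawn). Left of the dotted line at 1000 nt, Timm8b, Timm10 and Tomm5 lie above 0, as do 417 of all 621 short genes.

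The fusion genes all had small negative differences, also under each rescaling, and that of Opa1 was -0.0019 without BKO-2. Mfn2, the mitofusin that also tethers mitochondria to the endoplasmic reticulum, had 74.7, 69.6 and 71.1 FPKM in the BKO libraries and 78.0, 74.4 and 72.9 FPKM in the Ctrl libraries. Mfn1, the other mitofusin, had 23.0, 24.8 and 25.2 FPKM in BKO and 25.4, 23.3 and 25.7 FPKM in Ctrl. Opa1, which fuses the inner membrane and shapes cristae, had 45.1, 38.1 and 46.4 FPKM in BKO and 43.7, 45.0 and 48.8 FPKM in Ctrl. The groups overlapped in all of them, BKO-2 being the low library for Opa1 and Mfn2. The log2 differences were -0.06 for Mfn2 (95% interval -0.21 to 0.09), -0.03 for Mfn1 (95% interval -0.20 to 0.15) and -0.09 for Opa1 (95% interval -0.30 to 0.13).

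Among the fission genes, every BKO library lay below every Ctrl library for Dnm1l, and the groups overlapped for its adaptors. Dnm1l, the dynamin-like GTPase that constricts mitochondria, had 20.4, 18.7 and 21.3 FPKM in the BKO libraries and 21.6, 21.8 and 24.9 FPKM in the Ctrl libraries. No BKO library reached the lowest Ctrl library, although the gap between BKO-3 and Ctrl-1 was small. The means were 20.1 ± 1.34 FPKM in BKO and 22.7 ± 1.83 FPKM in Ctrl (SD, n = 3 each), a log2 difference of -0.17 (95% interval -0.37 to 0.03, limma adjusted p = 0.570). Mff, the most abundant adaptor, had 64.8, 67.8 and 61.3 FPKM in the BKO libraries and 61.5, 64.6 and 69.5 FPKM in the Ctrl libraries, a log2 difference of -0.01. Fis1 averaged 45.7 ± 6.57 FPKM in BKO and 41.8 ± 4.595 FPKM in Ctrl, a log2 difference of 0.12 (95% interval -0.17 to 0.41) that was 0.024 without BKO-2 and 0.23 without BKO-3.

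Of the genes that maintain and transcribe mitochondrial DNA, Tfb2m stood apart between the groups. Tfb2m, the initiation factor of the mitochondrial RNA polymerase, had 21.7, 20.1 and 20.8 FPKM in the BKO libraries and 21.8, 23.6 and 25.7 FPKM in the Ctrl libraries. The highest BKO value and the lowest Ctrl value, both in libraries numbered 1, nearly touched. The difference was -0.17 (95% interval -0.36 to 0.01, limma adjusted p = 0.516). Tfam, which packages mitochondrial DNA and activates its promoters, had 18.8, 25.8 and 21.0 FPKM in BKO and 22.7, 23.1 and 26.7 FPKM in Ctrl. BKO-1 and BKO-3 lay below every Ctrl library and BKO-2 lay between Ctrl-2 and Ctrl-3, with a log2 difference of -0.15 (95% interval -0.44 to 0.14) that was -0.27 without BKO-2 and -0.047 without BKO-1. Polg, the mitochondrial DNA polymerase, averaged 15.5 ± 2.14 FPKM in BKO and 15.2 ± 1.11 FPKM in Ctrl, and Polrmt, the RNA polymerase, 13.2 ± 1.43 and 12.6 ± 0.242 FPKM in BKO and Ctrl. Tfb1m, which methylates the small ribosomal RNA of mitochondria, averaged 5.18 ± 0.402 FPKM in BKO and 5.44 ± 0.179 FPKM in Ctrl (SD, n = 3 each).

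Among the matrix proteases and prohibitins, every BKO library lay below every Ctrl library for Phb2, and the groups overlapped for its partner Phb. Phb and Phb2 form ring complexes in the inner membrane that stabilise newly made proteins. Phb2 had 119, 132 and 124 FPKM in the BKO libraries and 141, 137 and 142 FPKM in the Ctrl libraries, with a gap between the groups. Its mean was 125 ± 6.41 FPKM in BKO and 140 ± 2.59 FPKM in Ctrl (SD, n = 3 each), a log2 difference of -0.17 (95% interval -0.32 to -0.01, limma adjusted p = 0.454). Phb averaged 127 ± 14.7 FPKM in BKO and 127 ± 7.41 FPKM in Ctrl, a log2 difference of -0.01. The proteases Lonp1 and Clpp, which degrade damaged matrix proteins, averaged 54.7 ± 4.64 and 52.6 ± 4.04 FPKM in BKO and 51.3 ± 1.37 and 52.9 ± 2.46 FPKM in Ctrl.

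Nrf1 and Gabpa, nuclear factors known to activate many genes of mitochondrial biogenesis, had low to moderate levels. Gabpa had 16.9, 15.0 and 20.1 FPKM in the BKO libraries and 17.1, 15.7 and 19.0 FPKM in the Ctrl libraries, a log2 difference of 0.00 (95% interval -0.28 to 0.28). Nrf1, the lowest of the 37 genes, had 3.67, 5.30 and 4.26 FPKM in BKO and 4.01, 4.42 and 3.95 FPKM in Ctrl, a log2 difference of 0.07 (95% interval -0.22 to 0.35). In both genes the lowest and the highest library were BKO libraries.

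The promoters of the 37 genes were searched for the letters these factors are known to bind. RefSeq windows of GRCm38.p6, 250 bases before to 50 bases after each start, were found for 35 of the 37 genes and searched on both strands, counting a gene once if any of its starts matched. The ETS core CCGGAAG, the kind of element bound by Gabpa and by other ETS factors, was present in 15 of the 35 (42.9%), beside 12.9% of 17492 protein-coding genes and 9.93% of all 27025 genes with a window. The NRF1 core, a run of 10 bases with 1 of them free, was present in 5 of the 35 (14.3%), beside 7.17% of protein-coding genes and 5.19% of all genes with a window. CCAAT was present in 14 genes (40.0%, beside 42.3% of protein-coding genes and 41.1% of all) and TATAAA in 4 (11.4%, beside 14.8% and 15.7%). Both backgrounds include genes that were not tested here, and the shares among tested genes or genes of like level were not computed. So it is not known whether the motif shares of the 37 genes differ from those of other expressed genes. A match is a run of letters, not a shown binding site, and the windows come from another build than the authors' alignment. The stretches below, each 30 bases read 5′ to 3′ on the gene's own strand and upstream of its start, show the 2 kinds of match next to the genes described above, with the motif or its reverse complement in capitals.
Tomm20, NRF1 core, chr8:126945922-126945951, minus strand: gggtccatctGCGCGTGCGCaccaggcgtt
Opa1, NRF1 core, chr16:29579265-29579294, plus strand: gtggctccccGCGCATGCGCatgtcatccg
Tfam, ETS core, chr10:71238073-71238102, minus strand: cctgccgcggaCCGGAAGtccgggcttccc
Polg, ETS core, chr7:79466293-79466322, minus strand: gaggacctcacCCGGAAGtccctctgcacc
Mfn1, ETS core, chr3:32529427-32529456, plus strand: gatccgaagcgCCGGAAGtagccgccccta
Timm23, ETS core, chr14:32201920-32201949, minus strand: cgcgcttcccaCTTCCGGgccgcacacagc
Tomm22, ETS core, chr15:79670810-79670839, plus strand: agcccggctcgCTTCCGGaagacgctctgt
Phb2, ETS core, chr6:124712205-124712234, plus strand: aagaggcgggaCTTCCGGatgcgccattcc
Of the genes whose libraries did not overlap, Dnm1l, Tomm22 and Phb2 held the ETS core, beside 42.9% of the 35 genes with a window. No match to it or to the NRF1 core was found for Tomm5 or Tfb2m. A link between these motifs and the differences between the groups was not tested.

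Pairs of related genes were also compared within each library, which removes the scaling of the library. The FPKM ratio of Mfn2 to Mfn1 was 2.96 ± 0.248 in BKO and 3.03 ± 0.186 in Ctrl (SD, n = 3 each; exact two-sided permutation p = 0.8). Timm17a exceeded Timm17b by 5.86 ± 0.421 in BKO and 5.87 ± 0.594 in Ctrl (exact permutation p = 1), and Tomm40 exceeded Tomm40l by 1.39 ± 0.0304 in BKO and 1.42 ± 0.112 in Ctrl (exact permutation p = 0.7). Timm8a1 reached 0.142 ± 0.0166 of Timm8b in BKO and 0.151 ± 0.0209 in Ctrl (exact permutation p = 0.6). None of the 6 pairs had groups that lay apart. The ratio of Phb2 to Phb was 0.942, 0.928 and 1.104 in BKO and 1.064, 1.154 and 1.089 in Ctrl, and that of Tfb2m to Tfb1m was 4.04 ± 0.166 in BKO and 4.37 ± 0.456 in Ctrl (exact permutation p = 0.3 for both, and 0.9 adjusted over the 6 pairs by Benjamini-Hochberg). With 3 against 3 libraries these p-values cannot go below 0.1.

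Many of the 37 genes peaked in the same library of a group. BKO-2 held the highest BKO value for 24 of the 37 (64.9%), beside 4213 of the 11397 genes tested, and among them were all 5 TIM23 genes and 5 of the 6 genes of the TIM22 branch. In Ctrl, Ctrl-3 held the highest value for 21 (56.8%), beside 29.4% of all genes tested, and Ctrl-2 for 2 (5.41%), beside 20.3%. The median deviation of the 37 genes from their group mean was 0.08 on the log2 scale in BKO-2, where all genes tested had 0.01. The coefficient of variation was larger in BKO than in Ctrl for 30 of the 37 genes (81.1%), beside 54.3% of all genes tested. Its medians over the 37 genes were 8.49% in BKO and 5.47% in Ctrl. The genes share their libraries and are not independent, so none of these counts is a number of separate observations. Without BKO-2 the median difference between the groups over the 37 genes was -0.06, and without BKO-3 it was 0.00.

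**Figure D4:**
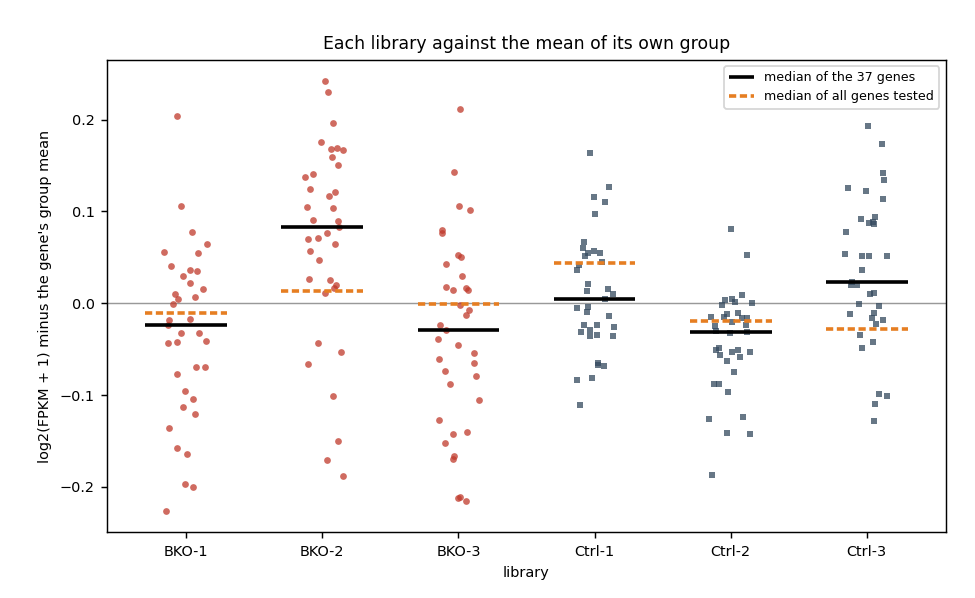
Deviation of each of the 37 genes in each library from the mean of its own group (vertical axis, log2(FPKM + 1) units; circles, BKO; squares, Ctrl), with the median of the 37 genes (black line) and of all genes tested (dashed line). In BKO-2 the 37 genes have a median of 0.08, beside 0.01 for all genes tested.

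Some other measures peaked in the same libraries and some did not. Ppargc1a, the coactivator that drives mitochondrial biogenesis together with Nrf1 and Gabpa, had 12.8, 38.4 and 28.4 FPKM in the BKO libraries, against 11.7, 9.62 and 38.7 FPKM in the Ctrl libraries. It was thus highest in BKO-2 and in Ctrl-3, the libraries in which the most of the 37 genes peaked. The other BKO libraries did not follow. Ppargc1a was higher in BKO-3 than in BKO-1, while the 37 genes summed to 1807 FPKM in BKO-3 and 1847 FPKM in BKO-1. Nrf1 was highest in BKO-2 but lowest in Ctrl-3, and Gabpa was highest in Ctrl-3 but lowest in BKO-2. The summed level of the 12 brown adipocyte markers, Ppargc1a among them, was also highest in BKO-2 (10394 FPKM) and in Ctrl-3 (10422 FPKM). Single markers differed. Cidea, Cox7a1, Cox8b and Prdm16 were highest in BKO-2 among BKO libraries. Ucp1, Elovl3 and Otop1 were highest in BKO-1, and Dio2, Cpt1b, Slc27a2 and Kcnk3 in BKO-3. In Ctrl, all of these but Cidea and Prdm16 were highest in Ctrl-3. The skeletal muscle sum was highest in BKO-2 (560 FPKM) and in Ctrl-1 (811 FPKM). The sum of 10 general adipocyte markers was highest in BKO-2 (17596 FPKM) among BKO libraries, but in Ctrl it was highest in Ctrl-1 (17050 FPKM), with 15967 FPKM in Ctrl-3. The part of any of these in the spread of the 37 genes was not tested.

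The partners of these genes were measured in lists of import, dynamics, DNA maintenance, biogenesis and protease genes. Of 81 symbols, older names included, 69 were listed and 68 tested, and 0 passed in either direction (limma, Benjamini-Hochberg), with 6 (8.82%) at an unadjusted p below 0.05 beside 10.2% of all genes tested. In 11 of them the libraries of the groups lay apart, which is 16.2% beside 15.9% of all genes tested. By direction, 1 was higher in BKO (1.47%, beside 9.06% of all genes tested) and 10 were lower (14.7%, beside 6.82%). Among all genes averaging 5 FPKM or more, these background shares were 8.26% higher and 8.28% lower. The median log2 difference of the 68 partners was -0.02. Among 22 import partners, Pmpca, a subunit of the peptidase that cuts off presequences, had 27.9, 28.2 and 28.4 FPKM in the BKO libraries and 36.0, 39.3 and 35.8 FPKM in the Ctrl libraries. The groups lay well apart, at 28.2 ± 0.262 FPKM in BKO and 37.03 ± 1.95 FPKM in Ctrl (SD, n = 3 each), a log2 difference of -0.38 (95% interval -0.54 to -0.23) that did not pass over all genes (limma adjusted p = 0.153). It passed in 1 alternative, with weights for the libraries, and its limma adjusted p ranged from 0.0461 to 0.548 over the alternatives.

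Immp2l, a subunit of the inner membrane peptidase, had 72.7, 82.4 and 68.0 FPKM in the BKO libraries and 109, 89.7 and 95.004 FPKM in the Ctrl libraries. Mtx1, an outer membrane import protein, had 54.8, 52.2 and 49.3 FPKM in BKO and 44.9, 45.6 and 47.8 FPKM in Ctrl. The groups did not overlap in either gene, Immp2l being lower in BKO and Mtx1 higher (limma adjusted p = 0.274 and 0.453).

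Among 20 partners of fusion, fission and cristae, Fam73b, which promotes fusion, had 44.3, 48.4 and 49.2 FPKM in the BKO libraries and 62.3, 58.7 and 52.3 FPKM in the Ctrl libraries. Mtfr1, a fission regulator, had 12.9, 12.3 and 13.7 FPKM in BKO and 14.4, 14.6 and 14.8 FPKM in Ctrl. Both lay lower in every BKO library than in any Ctrl library (limma adjusted p = 0.341 and 0.496). Park2, a ubiquitin ligase of mitophagy, had 1.30, 2.44 and 2.85 FPKM in BKO and 0.303, 0.335 and 1.67 FPKM in Ctrl, which overlap. Its log2 difference of 0.90 (95% interval 0.17 to 1.64, limma adjusted p = 0.412) was the largest of the 68 partners. Its levels were low, below 0.5 FPKM in Ctrl-1 and Ctrl-2, and Ctrl-3 was again the high Ctrl library.

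Among 11 partners of mitochondrial DNA, Lrpprc, which stabilises mitochondrial mRNA, had 29.9, 29.3 and 32.9 FPKM in the BKO libraries and 35.4, 33.5 and 35.4 FPKM in the Ctrl libraries, without overlap (limma adjusted p = 0.468). Mterfd1 had 24.7, 25.4 and 32.7 FPKM in BKO and 32.8, 28.9 and 33.2 FPKM in Ctrl, and Ssbp1, the single-strand binding protein, 24.8, 26.6 and 23.9 FPKM in BKO and 24.3, 22.8 and 22.1 FPKM in Ctrl. Both overlapped. Among 8 biogenesis factors none had groups that lay apart. Gabpb1, the partner of Gabpa, had 4.002, 4.13 and 4.39 FPKM in BKO and 5.31, 4.23 and 5.02 FPKM in Ctrl, Yy1 had 12.1, 14.7 and 15.4 FPKM in BKO and 15.7, 15.4 and 15.1 FPKM in Ctrl, and Nfe2l2 had 30.004, 37.4 and 36.1 FPKM in BKO and 30.1, 28.8 and 35.2 FPKM in Ctrl.

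Of 7 other proteases, Afg3l2, a subunit of the matrix-facing AAA protease, had 61.1, 64.8 and 61.0 FPKM in the BKO libraries and 69.3, 66.4 and 71.2 FPKM in the Ctrl libraries. Lactb had 9.53, 9.18 and 9.35 FPKM in BKO and 10.1, 10.3 and 9.84 FPKM in Ctrl. Both lay lower in every BKO library, by little (limma adjusted p = 0.503 and 0.676). Afg3l1 overlapped, with 16.1, 15.2 and 13.6 FPKM in BKO and 15.0, 14.1 and 13.4 FPKM in Ctrl.

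Some levels may include reads of similar copies. In GENCODE vM21, transcripts of other genes elsewhere in the genome matched at 95% identity or more over at least 300 bases for 6 of the 37 genes, with 5 such genes for Timm23, 4 for Tomm20, 3 for Phb and 1 each for Tfb2m, Timm17a and Timm8a1. Polg, Tomm40l and Tomm6 each shared sequence with 1 overlapping gene. How the authors' counting treated such reads is not given in the sources used here, so the levels of these 9 genes are uncertain to that extent.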

How the data were processed

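RNA was extracted with Trizol and made into TruSeq libraries, per the labels' protocols. The submitters' processing notes name CASAVA 1.8, TopHat2 2.0.12, Cufflinks 2.2.1 and the build NCBIM37, with no options or annotation. The authors deposited 1 table of FPKM per gene. Count models do not apply to FPKM, and the read depth behind the values is unknown. The sum of FPKM was 1119228 to 1617963 in 5 libraries and 2808874 in BKO-3, whose lowest value above 0 is 0.486 FPKM, below all values of the 37 genes. Fewer low values are listed in BKO-3 than in the other libraries, so shares over all genes are also given at higher levels.

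Columns were assigned by the sample names in the labels, which call the BKO libraries WT and the Ctrl libraries MT. The difference of log2(FPKM + 1) was fitted with limma 3.58.1 in R 4.3.3 over 11397 genes, with an intensity trend and Benjamini-Hochberg adjustment at 0.05. Ratios used exact permutation tests (scipy 1.17.1). Copies were sought with BLAST 2.17.0. Steps were tested on simulated data. Values in every library are given for the most abundant and most different gene of each role, for genes whose groups do not overlap, for 8 set genes and for the 3 partners with the lowest p per list. The 37 genes, lists and tests were chosen with earlier results of these data known. Alternatives changed the pseudocount, filter, scaling, prior, threshold or library set, or added weights, a muscle covariate or the replicate number as a block.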

Additional observations from a re-analysis of the deposited data

How the results depend on the processing

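The depth behind the FPKM values is unknown, and with 3 libraries a group the 95% intervals of the 37 genes extended 0.15 to 0.31 log2 units to either side, or 10.8% to 24.3% upwards, so smaller differences were not resolved. These intervals are not adjusted for the number of genes, and larger differences could also fail the test. Examples were Timm22 (-0.35, limma adjusted p = 0.441) and the partner Pmpca (-0.38, limma adjusted p = 0.153). None of the 37 genes was called under any alternative run, with limma adjusted p-values of 0.201 or more. Over all genes tested, 18 were higher and 1 lower, and the number higher was 11 with no filter on low values, 9 with a mean of at least 5 FPKM, 32 with a robust prior, 48 with library weights, 8 with the muscle covariate and 33 at a threshold of 0.1; the number lower was 6 with library weights. The number whose groups lay apart on the higher side was 584 with a mean of at least 5 FPKM. Among the partner genes 1, Pmpca, was called lower with library weights, and 2 lay apart on the higher side after quantile normalization. The causes were not tested, except that stricter filters test fewer genes.

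The labels do not say whether the replicate numbers pair the samples. Across genes, deviations of same-numbered libraries from their group means correlated at 0.20, -0.10 and -0.10. BKO-2 correlated best with Ctrl-3 (0.22) and BKO-3 with Ctrl-2 (0.15). Deviations within a group of 3 are not independent of each other, so these correlations cannot show or exclude a pairing. With a replicate block, 23 genes were called higher and 2 lower over all genes tested, and none of the 37 was called.

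With 1 library left out, 5 to 30 of all genes were called higher and 1 to 3 lower. Fewer libraries overlap less by construction, and 1287 to 2078 of all genes then lay apart higher and 994 to 1758 lower, among them 1 to 3 and 4 to 10 of the 37 (10 lower without BKO-2), while partner genes gave 1 to 10 (10 without BKO-3) and 12 to 17. The log2 ratios ranged over -0.11 to 0.0019 for Mfn2/Mfn1, -0.10 to 0.018 for Tomm40/Tomm40l, -0.075 to 0.072 for Timm17a/Timm17b and -0.18 to 0.018 for Timm8a1/Timm8b.

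Leaving out 1 library also moved differences that kept their sign, among them Opa1 (-0.14 to -0.0019), Tfam (-0.27 to -0.047), Fis1 (0.024 to 0.23), Timm50 (-0.16 to -0.0036), Timm13 (0.015 to 0.16) and Tomm70a (-0.087 to -0.0013). Signs turned in genes whose differences were near 0. With 1 library left out the log2 difference was -0.070 to 0.031 for Clpp, -0.11 to 0.094 for Gabpa, -0.052 to 0.034 for Mff, -0.070 to 0.012 for Mfn1, -0.046 to 0.17 for Nrf1, -0.094 to 0.072 for Phb, -0.046 to 0.13 for Polg, -0.018 to 0.13 for Polrmt, -0.056 to 0.066 for Timm17a, -0.074 to 0.12 for Timm17b, -0.060 to 0.015 for Timm23, -0.089 to 0.0023 for Timm44, -0.048 to 0.11 for Timm8a1, -0.031 to 0.066 for Timm9, -0.061 to 0.0063 for Tomm40l, -0.13 to 0.028 for Tomm6 and -0.11 to 0.053 for Tomm7. With library weights it was 0.029 for Clpp, 0.0096 for Mff, 0.054 for Phb, -0.039 for Polg, 0.0021 for Timm23 and 0.015 for Tomm7. With median ratio rescaling it was -0.021 for Gabpa, -0.0050 for Polg, -0.0091 for Timm17a, -0.0075 for Timm17b, -0.0058 for Timm8a1 and -0.0080 for Timm9. With quantile normalization it was -0.017 for Gabpa, -0.0026 for Polg, -0.0061 for Timm17a, -0.013 for Timm17b, -0.0042 for Timm8a1 and -0.017 for Timm9. With a pseudocount of 0.1 it was -9.05e-06 for Gabpa.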
